A study of Mus musculus with 31 samples.

Results

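The arrays described here carried brain RNA of newborn mice collected 12 h after hypoxia-ischemia (HI) that followed an injection of MgSO4. They were chosen by their title, RV Mg 12h a to c, and are 3 of the 31 two-colour arrays of the series. Each array held one RNA labelled with the dye Cy3 and one labelled with Cy5. Every value below is a log2 ratio of Cy5 to Cy3, so that a value above 0 means more signal in Cy5. The study compared MgSO4 alone, HI alone and both together in 5-day-old pups, to learn how a drug given for protection of the preterm brain alters transcription. Pups were of the NMRI strain and MgSO4 was given at 600 mg/kg, by the subcutaneous route in the labels and the intraperitoneal route in the methods. HI was made by permanent ligature of the right carotid artery followed by a period of low oxygen, and in the MgHI animals the injection preceded it. By the methods, times after HI count from the end of low oxygen and times of MgSO4 alone from the injection. The 12 h of both kinds of array are thus not the same time after MgSO4. RNA pools were of forebrain hemispheres without olfactory bulb, 6 to a pool by the methods and 3 by the study's note on animal numbers, of matched sex by the methods and of both sexes by the labels.

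The sources do not agree on what the 2 dyes held. The array titles set MgSO4-treated HI mice against MgSO4-treated naive mice, and the Cy3 label names brain of treated mice with no mention of HI. The series design and the methods set MgSO4-treated HI brains in Cy5 against saline-treated HI brains in Cy3, while the study's own figures give the opposite direction. No array was dye-swapped. The contrast is therefore given by dye alone, and a difference between the RNAs cannot be told apart from a dye preference of a probe. The labels call the arrays biological replicates, so p-values measure the spread between pools.

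Magnesium blocks the NMDA-type glutamate receptor and competes with calcium, and it is given before very preterm birth for protection of the brain. HI deprives one hemisphere of blood and oxygen, and in the newborn rodent it is followed by early gene transcription, chemokine and cytokine expression and loss of neurons. Histone genes of the replication-dependent class supply chromatin during DNA synthesis, and their transcripts end in a stem-loop rather than a poly(A) tail. Small nuclear and nucleolar RNAs serve in splicing and in modification of ribosomal RNA.

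Spots well above background made up 61.3 to 64.4% of probes in Cy3 and 63.8 to 68.4% in Cy5, with 0 saturated spots. The ratios of the 3 arrays correlated across genes at r = 0.40 to 0.52, a description over genes that are not independent. All 12 forebrain markers were well above background in both channels on every array, while 2 of 8 hindbrain markers passed the detection filter. After that filter 14850 genes were tested, each by its brightest probe. The median SD of a gene over the 3 arrays was 0.18 and the median size of its log2 ratio was 0.17.

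No gene passed the test of Cy5 against Cy3. With limma, 0 genes (0%) reached an adjusted p under 0.05 at 1.5-fold or more, and the smallest adjusted p was 0.0827. At an unadjusted p the same fold threshold held 971 genes (6.54%), of which 648 (4.36%) were higher in Cy5 and 323 (2.18%) higher in Cy3. The methods' t-test gave 370 genes (2.49%) unadjusted and 0 after Benjamini-Hochberg. When the spread was estimated together with the RV Mg 3h arrays, limma called 659 genes (4.44%) at the adjusted threshold, 467 (3.14%) higher in Cy5 and 192 (1.29%) higher in Cy3. Genes counted below as reaching the unadjusted threshold are a description. Those counted with the shared spread rest on the assumption that both times vary alike. With the spread shared over all 31 arrays 523 genes were called, and some genes that passed with the RV Mg 3h spread did not pass there. The third array weighed on the count, since 330 genes were called without it and 0 without either of the others.

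Dim genes supplied many of the differences. Genes were divided by brightness into 5 bins of 2970. In the dimmest bin 8.96% reached the unadjusted threshold with more Cy5 signal and 3.87% with more Cy3 signal, against 3.13% and 1.01% in the brightest. Of the 648 genes higher in Cy5, 87 had no Cy3 signal well above background on any array, and 7 of the 323 genes higher in Cy3 had none in Cy5. For such a gene the ratio is a bound, given here as the fold of the bright channel over the lowest signal that counts as detected. Each "at least" below rests on that floor, the lowest of any spot, and on the deposited background subtraction. Other background corrections gave smaller ratios for dim genes. The 12 genes of each direction with the smallest p were taken among those at 1.5-fold or more with one sign on all 3 arrays. Their arrays therefore share a sign by choice. All had an adjusted p of 0.0827 (limma).

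**Figure D1:**
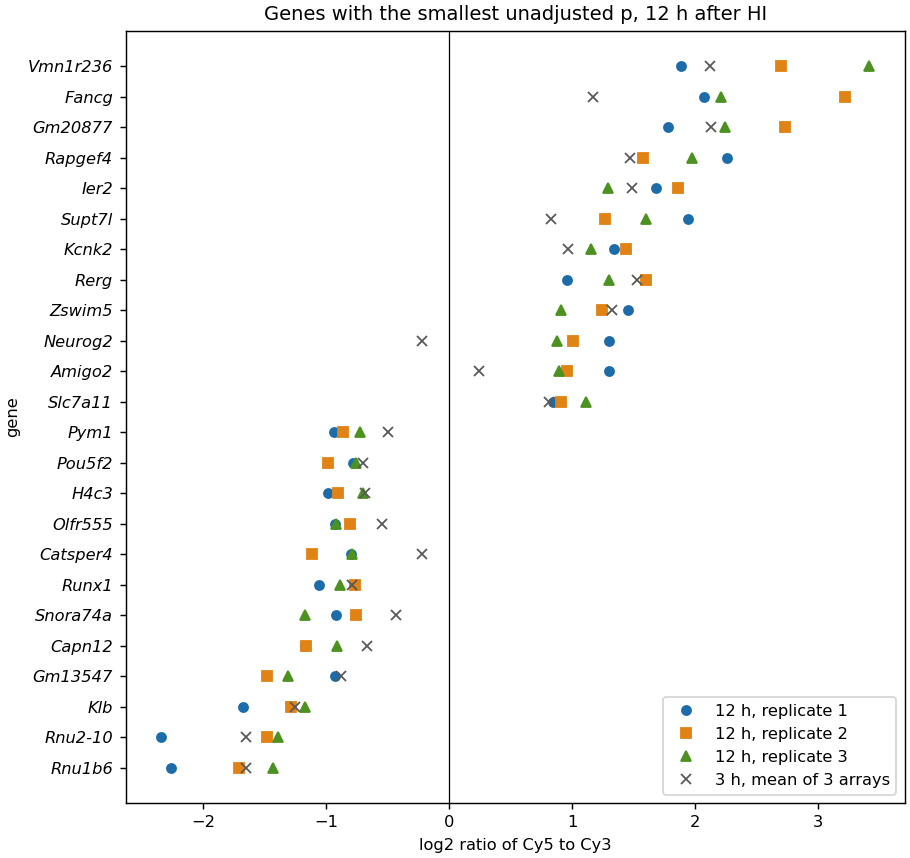
Log2 ratio of Cy5 to Cy3 (horizontal axis) of the 12 genes of each direction with the smallest p, with a symbol for each of the 3 arrays at 12 h and a cross for the mean of the 3 arrays at 3 h. Genes were chosen to have one sign on all 3 arrays, so their 12 h values lie on one side of 0 by that choice. These values run from 3.41 for Vmn1r236 to -2.34 for Rnu2-10, and the 3 h cross of Neurog2 lies opposite to its 12 h values.

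Among the genes higher in Cy5, a potassium channel and a signalling gene led. Kcnk2, which encodes the background potassium channel TREK-1 that dampens neuronal firing, had log2 ratios of 1.34, 1.44 and 1.16 (mean 1.31 ± 0.14 SD, n = 3). All 3 arrays were alike and both channels were well above background on each, and with the shared spread the adjusted p was 0.0183 (limma). Rapgef4, which encodes the cAMP sensor Epac2 of neurons, stood at 2.26, 1.58 and 1.97, with Cy3 not well above background on any array. By its bound it was at least 1.51-fold higher in Cy5. Ier2, an immediate early gene, had log2 ratios of 1.68, 1.87 and 1.29 (mean 1.61 ± 0.29 SD, n = 3), and its Cy3 signal was well above background on 2 arrays.

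Slc7a11, which encodes the cystine-glutamate exchanger that feeds glutathione synthesis, was at 0.84, 0.91 and 1.11 (mean 0.96 ± 0.14 SD, n = 3). Its arrays differed by little, yet with the shared spread its adjusted p was 0.0719 (limma), and the 3 h arrays ranged from 0.12 to 1.79. Amigo2, which encodes a neuronal adhesion and survival protein, had log2 ratios of 1.30, 0.96 and 0.90. With the shared spread its adjusted p was 0.0183 (limma), and its 3 h mean was 0.25. Neurog2, a transcription factor of neuronal progenitors, had log2 ratios of 1.30, 1.01 and 0.87, and was at least 1.44-fold higher in Cy5 by its bound. Zswim5, a zinc finger gene, reached at least 2.03-fold in the same sense, with log2 ratios of 1.45, 1.25 and 0.91. Rerg, which encodes a Ras-like growth inhibitor, reached at least 1.33-fold.

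The other genes of this set were dim. Fancg, a member of the Fanconi anemia DNA repair complex, had log2 ratios of 2.07, 3.22 and 2.21 but was at least 1.39-fold higher in Cy5 by its bound. Vmn1r236, a vomeronasal receptor gene, had log2 ratios of 1.89, 2.70 and 3.41 and a bound of 1.34-fold. Gm20877 and Supt7l, the latter a subunit of a chromatin-modifying coactivator complex, were detected in Cy5 on 2 arrays and in Cy3 on none. By size, Gna12, which encodes a G protein alpha subunit, joined them with 2.83, 2.26 and 1.03, and Mppe1, a phosphodiesterase gene of GPI-anchored proteins, with 1.91, 3.56 and 0.47. Both were detected in Cy5 alone, with bounds of 2.01-fold and 1.8-fold. Without background subtraction or with normexp the ratios of the dim genes shrank. The lowest mean log2 ratio was 0.13 for Rapgef4, 0.17 for Fancg and 0.12 for Neurog2, against 0.54 for Kcnk2 and 0.52 for Ier2. It was 0.25 for Slc7a11, 0.24 for Amigo2 and 0.22 for Zswim5.

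Among the genes higher in Cy3, non-coding RNAs stood out. Rnu1b6, a copy of the U1 RNA that recognises the start of introns, had log2 ratios of -2.26, -1.71 and -1.43 (mean -1.80 ± 0.43 SD, n = 3). Rnu2-10, a copy of the U2 RNA of the spliceosome, had -2.34, -1.48 and -1.39 (mean -1.74 ± 0.52 SD, n = 3). Both were lowest on the array of replicate 1 and well above background in both channels. When the spread was shared with RV Mg 3h their adjusted p were 0.0183 and 0.0208 (limma). With the spread shared over all 31 arrays Rnu1b6 passed at 0.00444 and Rnu2-10 did not at 0.0752 (limma). Snora74a, a nucleolar RNA that guides modification of ribosomal RNA, had -0.92, -0.76 and -1.17. H4c3, a histone H4 gene, had -0.98, -0.90 and -0.70.

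The protein-coding genes higher in Cy3 did not form a single class. Klb, which encodes the FGF21 co-receptor beta-Klotho, had log2 ratios of -1.68, -1.28 and -1.17 (mean -1.38 ± 0.26 SD, n = 3) and was detected in Cy5 on 1 array. Runx1, a transcription factor of blood and microglial lineages, had -1.06, -0.77 and -0.88. With the shared spread both passed, at adjusted p of 0.0183 and 0.0202 (limma). With the spread shared over all 31 arrays Klb passed at 0.0156 and Runx1 did not at 0.066 (limma). With normexp or without background subtraction their means came as near to 0 as -0.21 and -0.15. Pou5f2, a transcription factor gene of the germ line, had -0.78, -0.99 and -0.76. Capn12, a calpain protease gene, and Pym1, which recycles the exon junction complex, were at least 1.59-fold and 1.46-fold higher in Cy3. Gm13547, the olfactory receptor gene Olfr555 and the sperm calcium channel gene Catsper4 had mean log2 ratios of -1.24, -0.88 and -0.90, with Cy5 well above background on 2, 2 and 1 of the 3 arrays. With normexp these means were -0.30, -0.17 and -0.15.

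Large differences were also found in Utp14a, which acts in processing of ribosomal RNA. Its log2 ratios were -1.28, -2.20 and -1.32 (mean -1.60 ± 0.52 SD, n = 3), and its other probe had a mean of -1.58. Tox4, a chromatin protein gene, did not behave alike over its probes, with -2.21, -1.97 and -0.83 by the brightest and a mean of 0.36 by the other. Vmn2r90, a vomeronasal receptor gene, had -2.29, -2.41 and -0.53, with Cy5 well above background on 1 array. Its mean of -1.74 became -0.40 without background subtraction and -0.25 with normexp. In all, 209 of the 971 genes had a further probe, and 30 of those had one of opposite sign at an unadjusted p under 0.05 and any fold.

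Histone genes of the replication-dependent class lay below 0 as a group. The list was drawn up after these values were seen, so its counts are a description. Of its 36 tested genes 32 had a mean below 0 and 28 were below 0 on every array, with a median of -0.62 against -0.01 over all genes. At the unadjusted threshold 18 were higher in Cy3 and 0 higher in Cy5, where 2.18% and 4.36% of all genes were, and 18 passed with the shared spread. With the spread shared over all 31 arrays, H2ac22, H4c17, H1f1 and H1f5 passed, at adjusted p of 0.00032 to 0.0357 (limma). H4c3, H2bc3 and H3c13 did not, at 0.104, 0.113 and 0.0791 (limma). The list median was -0.77, -0.67 and -0.44 on the 3 arrays, so that the third array lay nearest to 0. The probes of H2ac and H4c paralogs may read each other's transcripts, since their coding sequences are nearly identical, and the genes are not independent measurements.

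Core and linker histones were both among them. H2ac22, a histone H2A gene, had log2 ratios of -1.11, -1.16 and -0.58 (mean -0.95 ± 0.32 SD, n = 3). H3c13, a histone H3 gene, had -1.20, -1.14 and -0.65, and H2bc3, a histone H2B gene, had -0.69, -0.74 and -0.65. The H2bc3 mean of -0.69 became -0.26 without background subtraction and -0.19 with normexp. The lowest means were those of the linker histone genes H1f1 (-1.70, -1.73 and -0.43) and H1f5 (-1.51, -1.90 and -0.30) and of H4c17 (-1.66, -0.97 and -0.93). For both linker histone genes the third array stood well apart from the others. H3c3, a histone H3 gene, was the highest of the list, at 0.37, 0.26 and 0.26.

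Replacement histones, most of which are made outside DNA synthesis and from polyadenylated transcripts, gave another picture. The 9 tested genes had a median of 0.04. H1f0, the linker histone gene of differentiating and resting cells, had log2 ratios of 1.58, 1.72 and 0.76 (mean 1.35 ± 0.52 SD, n = 3), opposite to H1f1 and H1f5. With the shared spread it passed at an adjusted p of 0.0183 (limma). H1f10, another replacement linker histone gene, had 0.51, 0.63 and 0.09. Genes of the cell cycle, a list of 13 that includes Top2a, the topoisomerase of dividing cells, had a median of -0.02. By their brightest probes 0 members reached the unadjusted threshold. Ccnb1 of this list was at -0.22 by its brightest probe, while its other probes had means of 0.84 and 0.61 and did reach it.

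Promoters of the histone genes are shown because the genes of this class lay on the same side of 0 together. The 120 bases before each start were taken from RefSeq on build GRCm38.p6, 5′ to 3′ along the gene, and capitals mark 2 motifs searched on both strands. These are CCAAT, which reads as ATTGG from the opposite strand, and TATAA, which reads as TTATA from there, and they do not share letters in the windows shown. H4c3 lies at chr13:23698459-23698578 on the minus strand, H2ac22 at chr13:21787249-21787368 on the minus strand, H2bc3 at chr13:23746614-23746733 on the plus strand, H3c13 at chr3:96268534-96268653 on the plus strand and H1f0 at chr15:79028092-79028211 on the plus strand.
H2ac22: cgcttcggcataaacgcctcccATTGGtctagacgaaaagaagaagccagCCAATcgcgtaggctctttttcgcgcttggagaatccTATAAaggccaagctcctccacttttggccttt
H2bc3: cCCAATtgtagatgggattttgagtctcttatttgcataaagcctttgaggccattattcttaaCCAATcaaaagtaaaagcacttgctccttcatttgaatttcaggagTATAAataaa
H3c13: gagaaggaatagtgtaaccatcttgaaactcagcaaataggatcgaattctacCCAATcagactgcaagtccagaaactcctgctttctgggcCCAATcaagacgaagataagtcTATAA
H4c3: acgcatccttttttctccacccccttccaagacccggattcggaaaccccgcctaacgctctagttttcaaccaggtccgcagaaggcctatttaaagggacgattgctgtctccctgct
H1f0: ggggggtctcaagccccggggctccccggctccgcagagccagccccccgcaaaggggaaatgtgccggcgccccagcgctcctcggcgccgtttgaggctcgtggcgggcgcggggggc
H2ac22, H2bc3 and H3c13 each held 2 copies of CCAAT and 1 of TATAA, whereas H4c3 and H1f0 held neither. Of 32851 promoter windows of this length, 21.3% held CCAAT, 11.9% TATAA and 2.56% both. Windows were found for 31 of the 36 replication-dependent genes, and of their 32 windows 26 (81.3%) held CCAAT, 19 (59.4%) TATAA and 16 (50%) both. Of 8 windows of replacement histone genes, 4 held CCAAT and 1 TATAA. H4c3 and the 3 genes that hold both motifs had mean log2 ratios of the same sign. A match of letters is a description of the sequence.

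Small and structural RNAs were the list farthest from 0. This list too was set after the values were seen. All 10 tested members had a mean below 0, 9 of them on every array, and the median was -0.96 (-1.09, -0.76 and -0.98 on the 3 arrays). At the unadjusted threshold 7 were higher in Cy3, and 6 passed with the shared spread, beside 2.18% and 1.29% of all genes. With the spread shared over all 31 arrays Rnu1b6 and Rn28s1 passed, at adjusted p of 0.00444 and 0.0357 (limma). Rnu2-10, Rmrp, Rnu3b1, Snora74a and Snora47 did not, at 0.0539 to 0.13 (limma). Beside the U1, U2 and Snora74a RNAs already given, Rmrp, the RNA of the RNase MRP particle, lay between -1.92 and -0.76 (mean -1.40 ± 0.59 SD, n = 3). Rnu3b1, a copy of the U3 RNA of ribosomal RNA processing, had -1.58, -0.72 and -1.16, and Snora47 had -1.27, -0.83 and -0.80.

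Rn28s1, the large ribosomal RNA, had -0.90, -0.89 and -0.66 (mean -0.82 ± 0.14 SD, n = 3). It was thus below 0 by a like amount on each array. Terc, the telomerase RNA, had smaller values of -0.36, -0.35 and -0.20. These transcripts and those of replication-dependent histones lack a long poly(A) tail as a class.

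**Figure D2:**
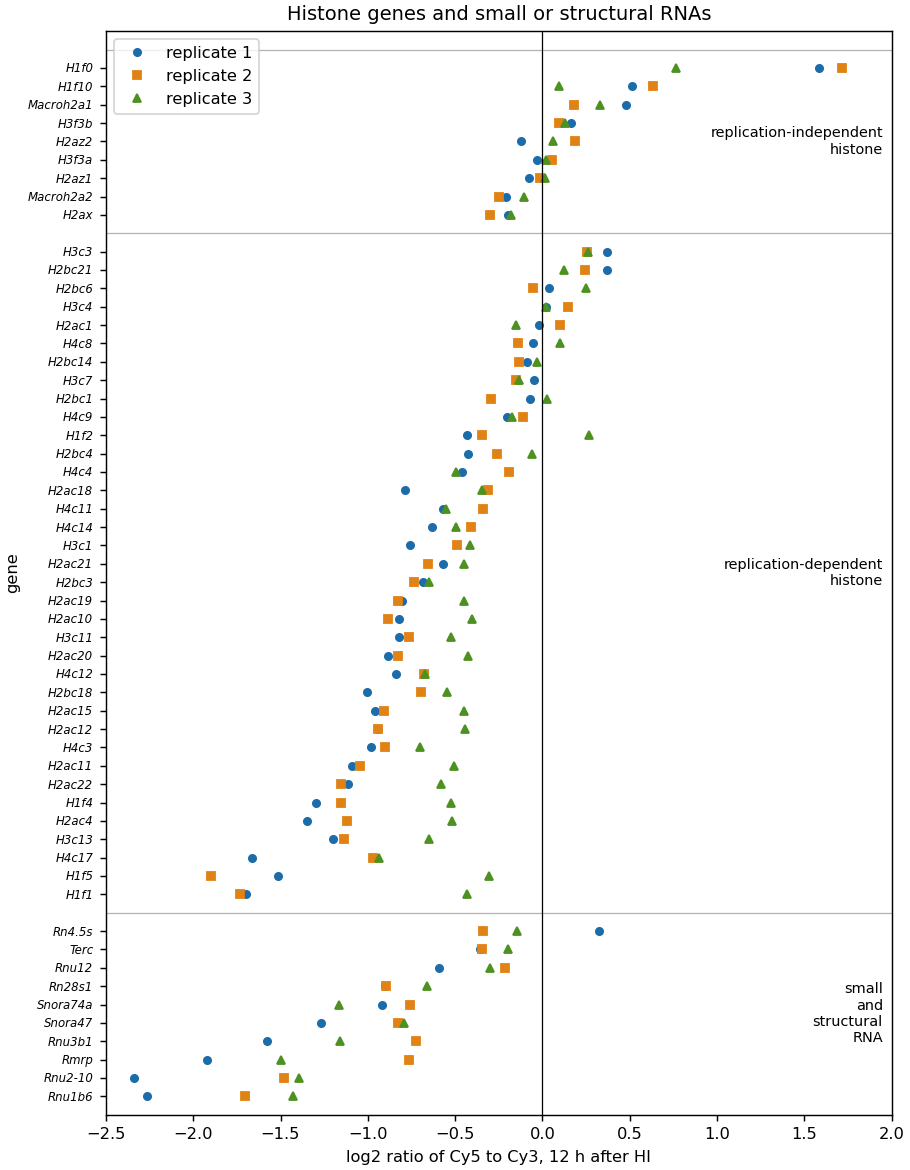
Log2 ratio of Cy5 to Cy3 at 12 h (horizontal axis) of each small or structural RNA, replication-dependent histone gene and replication-independent histone gene, with a symbol for each of the 3 arrays. Points of the 36 replication-dependent genes lie mostly left of 0 and those of H1f0 lie right of it, at 0.76 to 1.72.

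Immediate early genes, which neurons transcribe within minutes of activity or stress, lay somewhat above 0. This list and those that follow were fixed with earlier results of these arrays known. Of 15 tested genes 13 had a mean above 0, against 7273 of 14850 over all genes, and the median was 0.31. On the 12 h arrays of MgSO4 against control and of HI against control that median was 0.21 and 0.33. At the unadjusted threshold 4 were higher in Cy5, where 4.36% of all genes were. Beside Ier2, Junb, which encodes an AP-1 subunit, had log2 ratios of 0.98, 1.71 and 0.51. Cy3 was not well above background for Junb on any array, so that its ratio is a bound, at least 1.23-fold, and its mean of 1.06 became 0.24 without background subtraction and 0.11 with normexp. Fos, the other AP-1 partner, had 0.20, 0.80 and 1.58, and Atf3, a stress-induced transcription factor gene, had 0.18, 1.02 and 1.17. Egr1, another activity-dependent transcription factor gene, had 0.42, 0.31 and 0.58.

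Synaptic genes were uneven. Of 24 presynaptic genes 19 had a mean above 0, against 7273 of 14850 over all genes, and 4 were higher in Cy5 at the unadjusted threshold, where 4.36% of all genes were. Their median was 0.23, with 0.36, 0.05 and 0.13 by array, and it was 0.11 without replicate 1. On the 12 h arrays of MgSO4 against control and of HI against control the presynaptic median was 0.31 and 0.36. Sv2a, a synaptic vesicle glycoprotein gene and target of an antiepileptic drug, had log2 ratios of 1.40, 0.88 and 0.84 (mean 1.04 ± 0.31 SD, n = 3). Stx1a, which encodes the syntaxin of vesicle fusion, had 0.90, 0.78 and 0.37. Both passed with the shared spread, at adjusted p of 0.021 and 0.0273 (limma). Unc13a, which primes vesicles, had 0.64, 1.28 and 0.14, and its mean of 0.69 became 0.16 without background subtraction and 0.08 with normexp. The postsynaptic list of 24 genes had a median of 0.04 and 1 gene higher in Cy5 at the unadjusted threshold, near the share of all genes.

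Potassium channel genes held differences mostly toward Cy5. Of 72 tested, 7 reached the unadjusted threshold with more Cy5 signal and 1 with more Cy3 signal, where 4.36% and 2.18% of all genes did. With the shared spread 5 passed, all higher in Cy5, beside 3.14% of all genes. Kcnip2, which encodes a subunit of A-type potassium channels, had log2 ratios of 1.24, 1.09 and 0.46. Kcna4, the pore gene of an A-type channel, had 0.85, 0.62 and 0.60 (mean 0.69 ± 0.14 SD, n = 3). Kcns1, a silent modifying subunit gene, had 0.96, 0.88 and 0.39.

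Further members were spread more widely. Kcna2 and Kcna3, genes of delayed rectifier channels, had 2.03, 0.84 and 0.44 and 1.19, 0.64 and 0.28, in both cases highest on the array of replicate 1. With normexp their means were 0.22 and 0.14. Kcnq5, which encodes an M-current channel, had 0.80, 0.38 and 0.60. Kcng1, a silent subunit gene, lay on the other side of 0 at -0.46, -1.60 and -0.73. The list median was 0.05.

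Imprinted genes, expressed from one parental copy, differed in both directions. Of 17 tested, 2 reached the unadjusted threshold with more Cy5 signal and 2 with more Cy3 signal, where 4.36% and 2.18% of all genes did, and the same number in each direction passed with the shared spread. Snrpn, a paternally expressed splicing protein gene of the Prader-Willi region, had log2 ratios of 1.20, 0.99 and 0.47 by its brightest probe and means of 1.17 and 0.19 by the other two. Ndn, a neuronal growth suppressor gene of that region, had 0.84, 0.97 and 0.25. Kcnq1ot1, a long non-coding RNA that silences neighbouring genes, had -0.53, -0.85 and -0.96. Grb10, an adaptor gene of insulin signalling, had -0.79, -1.01 and -0.41. Peg10, a retrotransposon-derived placental gene, had -2.44, -2.71 and 0.49, and the third array thus opposed the other two.

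Inflammatory genes had no common direction over the 3 arrays. Of 18 tested genes 3 were above 0 on the array of replicate 1, 13 on that of replicate 2 and 17 on that of replicate 3, with medians of -0.21, 0.23 and 0.65. Tnf and Il6 reached the unadjusted threshold with more Cy5 signal, where 4.36% of all genes did. With the shared spread 0 passed. Tnf, a cytokine gene of microglia and macrophages, had log2 ratios of 0.47, 1.16 and 0.67, and its mean of 0.77 became 0.15 without background subtraction and 0.09 with normexp. Il6, another cytokine gene, had 0.44, 0.71 and 3.05, and its mean of 1.40 became 0.46 without background subtraction and 0.31 with normexp. Cxcl10, a chemokine gene induced by interferon, had -0.64, 0.30 and 2.31, and Ccl2, a monocyte chemokine gene, had -0.07, 0.33 and 1.96. For Il6, Cxcl10 and Ccl2 the array of replicate 3 stood above both others. Microglial markers had medians of -0.29, 0.17 and 0.04 on the same arrays, and their part in this spread was not tested.

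Interferon-induced genes were split in the same way. Of 18 genes 2, 6 and 17 were above 0 on the arrays of replicates 1, 2 and 3, and 0 reached the unadjusted threshold. Ifit1, an antiviral gene, had log2 ratios of -0.90, -0.95 and 4.74. Ifit2, of the same family, had 0.45, 0.33 and 0.43, alike on each array and under 1.5-fold.

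The injury ratio itself gives a scale for these values. On the RV PBS 12h arrays, titled HI against naive mice with the naive RNA in Cy3, the same 18 inflammatory genes had medians of 1.39, 2.83 and 1.84. Those arrays may share HI pools with the present ones, and the labels list MgSO4 as the treatment of their Cy5 channel against their title. In the test of the difference between the ratios of both groups, limma called 2 of 14438 genes (0.0139%), with 1622 (11.2%) at the unadjusted threshold. Both groups lay on the same slides, replicate 1 on slide 8 and the others on slide 9, and this fit leaves the slide out. With slide as a random block the count was 405, as a fixed block 36 and within slide 9 it was 6. With the replicate number as a block it was 1248. Whether arrays of the same number shared a pool is not known, so the count depends on the fit chosen. Ccl4, a chemokine gene of microglia, had log2 ratios of -0.70, 0.18 and 0.58 here and 4.04, 4.88 and 3.99 there, a difference of -4.28 ± 0.37 SE (adjusted p = 0.0332, limma). Lilrb4a, an inhibitory receptor gene of myeloid cells, had -0.30, -0.19 and 0.57 here and 3.38, 4.25 and 3.81 there, a difference of -3.79 ± 0.30 SE (adjusted p = 0.0261, limma).

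For both genes the values of the groups did not overlap, and both were named after their values were seen. Leaving out any 1 of the 6 arrays ended both calls, except that Ccl4 kept its call without RV Mg 12h replicate 1. The differences then stayed between -4.56 and -3.92 for Ccl4 and between -4.06 and -3.57 for Lilrb4a, with adjusted p of 0.0333 to 0.288 and of 0.0521 to 0.288 (limma). Both calls also ended without background subtraction, with differences of -2.67 and -1.51, and without the detection filter. Both held within slide 9, at differences of -4.05 for Ccl4 and -3.84 for Lilrb4a (adjusted p = 0.0417 for each, limma). With slide as a random block the adjusted p were 0.00913 and 0.00742, and as a fixed block 0.00609 for each (limma). With the replicate number as a block they were 0.00244 for each (limma). Cxcl10 had 6.28, 6.27 and 4.47 on the RV PBS 12h arrays and a difference of -5.02 ± 0.79 SE that missed the threshold without the slide in the fit (adjusted p = 0.0822, limma). Gbp2, an interferon-induced GTPase gene, had -0.57, -0.12 and 0.90 here and 2.13, 2.62 and 2.45 there, with an adjusted p of 0.0822 (limma). With slide as a random block both passed at 0.0475, as a fixed block Gbp2 passed at 0.041 and Cxcl10 did not at 0.0516, and within slide 9 neither did, at 0.0757 and 0.0944 (limma).

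**Figure D3:**
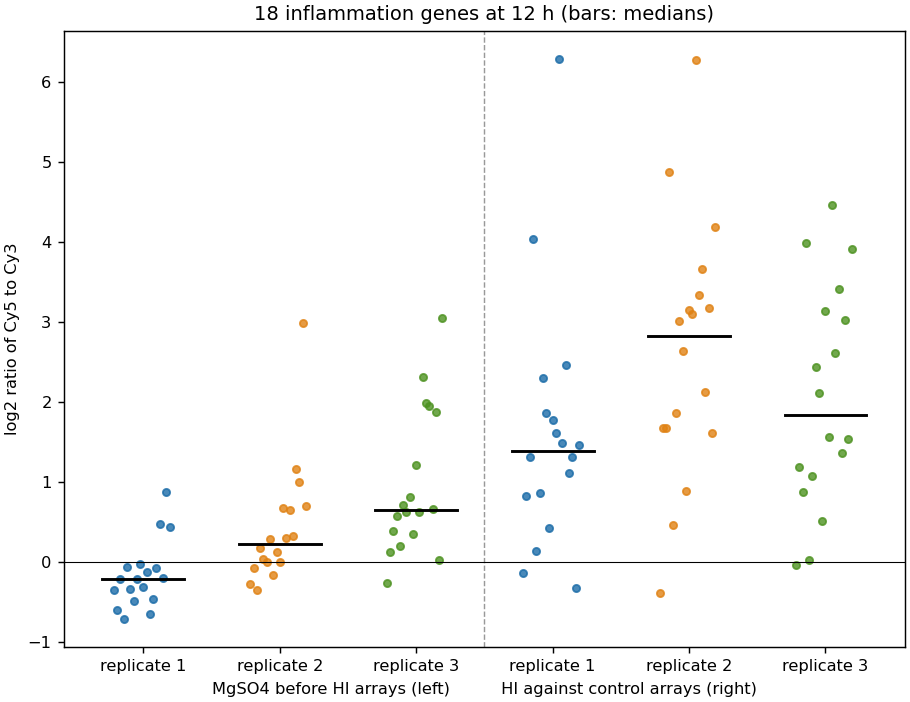
Log2 ratio of Cy5 to Cy3 (vertical axis) of 18 inflammatory genes at 12 h on the 3 arrays of MgSO4 before HI (left) and the 3 arrays of HI against control (right), with a point for each gene and a bar for the median. Medians are -0.21, 0.23 and 0.65 on the left and 1.39, 2.83 and 1.84 on the right.

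Sterol synthesis genes are a further group that differed between the 2 kinds of array by value. The 23 genes of cholesterol biosynthesis had a median of 0.00 here and 0 members at the unadjusted threshold, beside -0.44 on the RV PBS 12h arrays. Nsdhl, a sterol dehydrogenase gene, had log2 ratios of 0.46, 0.67 and 0.40, and Fdft1, the squalene synthase gene, had 0.57, 0.73 and 0.24. By their brightest probes both were above 0 on each array and under 1.5-fold, and the other Nsdhl probe had a mean of -0.20. Idi1 and Msmo1, earlier and later enzymes of the pathway, had mean log2 ratios of -0.15 and -0.15 here and -1.23 and -0.89 there, with the difference at an adjusted p of 0.0822 for each (limma). With slide as a random block both differences passed at 0.0475, as a fixed block they were at 0.0488 and 0.0524, and within slide 9 at 0.0836 and 0.113 (limma).

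Genes of energy metabolism lay slightly below 0. Of 82 nuclear genes of oxidative phosphorylation 61 had a mean below 0 and 48 were below 0 on every array, with a median of -0.15. Over all 14850 genes these counts were 7577 and 3652. The mitochondrial ribosomal proteins had 57 of 77 below 0 and a median of -0.11, and the cytosolic ribosomal proteins had a median of 0.01. On the RV PBS 12h arrays the oxidative phosphorylation and mitochondrial ribosomal medians were -0.24 and -0.23, and on the RV Mg 3h arrays -0.15 and -0.12. They were 0.03 and -0.07 on the 12 h arrays of MgSO4 against control. Ndufa10, a complex I subunit gene, went the other way at 0.66, 0.57 and 0.51, and the cytosolic ribosomal protein gene Rps24 was at 0.59, 0.76 and 0.40 by its brightest probe. Another probe of Rps24 was below 0 on every array, at -0.42, -0.30 and -0.30. Psme3, which encodes a nuclear proteasome activator, had 0.90, 0.72 and 0.70 (mean 0.78 ± 0.11 SD, n = 3) and passed with the shared spread at an adjusted p of 0.0183 (limma). Actg1, the cytoplasmic gamma-actin gene, had 1.19, 0.78 and 0.90, and its 5 probes had means of 0.81 to 1.22.

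Genes of the responses to low oxygen and to protein damage had medians near 0. The 21 hypoxia-response genes had a median of 0.04, with 1 gene higher in Cy5 at the unadjusted threshold, where 4.36% of all genes were. That gene was Slc2a1, which encodes the glucose transporter of the blood-brain barrier, at 0.32, 0.76 and 0.88. With the shared spread it passed at an adjusted p of 0.0281 (limma). Bnip3, a mitophagy gene, had 0.34, 0.64 and 0.35 by its brightest probe and means of 0.09 and -0.01 by the other two. Vegfa, the vascular growth factor gene, had 0.20, 0.41 and 0.47. The 12 heat shock genes had a median of 0.07 and 0 members at the unadjusted threshold by their brightest probes. Hspa8, a constitutive chaperone gene, was at 0.48, 0.39 and 0.56 by its brightest probe, while another of its probes had 1.77, 1.69 and 0.53 and did reach that threshold.

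Markers of the cell types of the forebrain had list medians from 0.00 to 0.21. The 10 neuronal genes had a median of 0.21, but it was 0.45, -0.06 and 0.19 by array and 0.0071 without replicate 1. Medians were 0.08 for 12 astrocyte genes, 0.15 for 12 genes of the oligodendrocyte lineage, 0.00 for 12 microglial genes and 0.16 for 12 endothelial genes. In these whole-tissue pools fewer cells of a type and less RNA per cell cannot be told apart. Nefm, a neurofilament gene, had log2 ratios of 0.97, 0.53 and 0.44. In the oligodendrocyte lineage, Mag, a myelin glycoprotein gene, had -1.21, -0.56 and -0.34, while Olig1, a transcription factor gene of progenitors, had 0.43, 0.47 and 0.52.

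Endothelial genes also differed in sign. Kdr, the main receptor gene for vascular growth factor, had -0.87, -0.96 and -0.33 by its brightest probe and a mean of 0.12 by the other. Tek, the angiopoietin receptor gene, had a mean of 0.81 ± 0.60 (SD, n = 3), which became 0.26 without background subtraction and 0.17 with normexp. Genes of blood cells had a median of -0.13 with 0 of 9 at the unadjusted threshold. Further lists gave medians of 0.10 for 39 protocadherin genes, 0.14 for 30 splicing factor genes, -0.01 for 40 proteasome subunit genes, 0.04 for 13 reelin-pathway genes, 0.00 for 15 redox genes, 0.20 for 9 choroid plexus genes and -0.07 for 321 Zfp zinc finger genes, among them Zfp449 at 1.44, 0.68 and 1.66. The Zfp449 mean of 1.26 became 0.23 without background subtraction and 0.08 with normexp.

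A few short lists lay farther above 0. The 12 forebrain markers had a median of 0.27, with 0.35, 0.15 and 0.16 by array, and 8 of them were above 0 on every array. Without replicate 1 that median was 0.13. The same markers had medians of 0.26 and 0.28 on the 12 h arrays of MgSO4 against control and of HI against control. Emx2, a cortical transcription factor gene, had 0.72, 0.61 and 0.49. The 2 hindbrain markers tested had means of opposite sign and a median of 0.30. All 5 tested actin genes, a list drawn up after the values were seen, had a mean above 0, with a median of 0.25. The 4 tested genes that differ between the sexes, which were Xist of the inactive X chromosome and the Y-linked genes Ddx3y, Eif2s3y and Uty, had means from 0.16 to 0.42 and a median of 0.21. By array their medians were 0.34, 0.45 and -0.03, and 0 reached the unadjusted threshold.

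**Figure D4:**
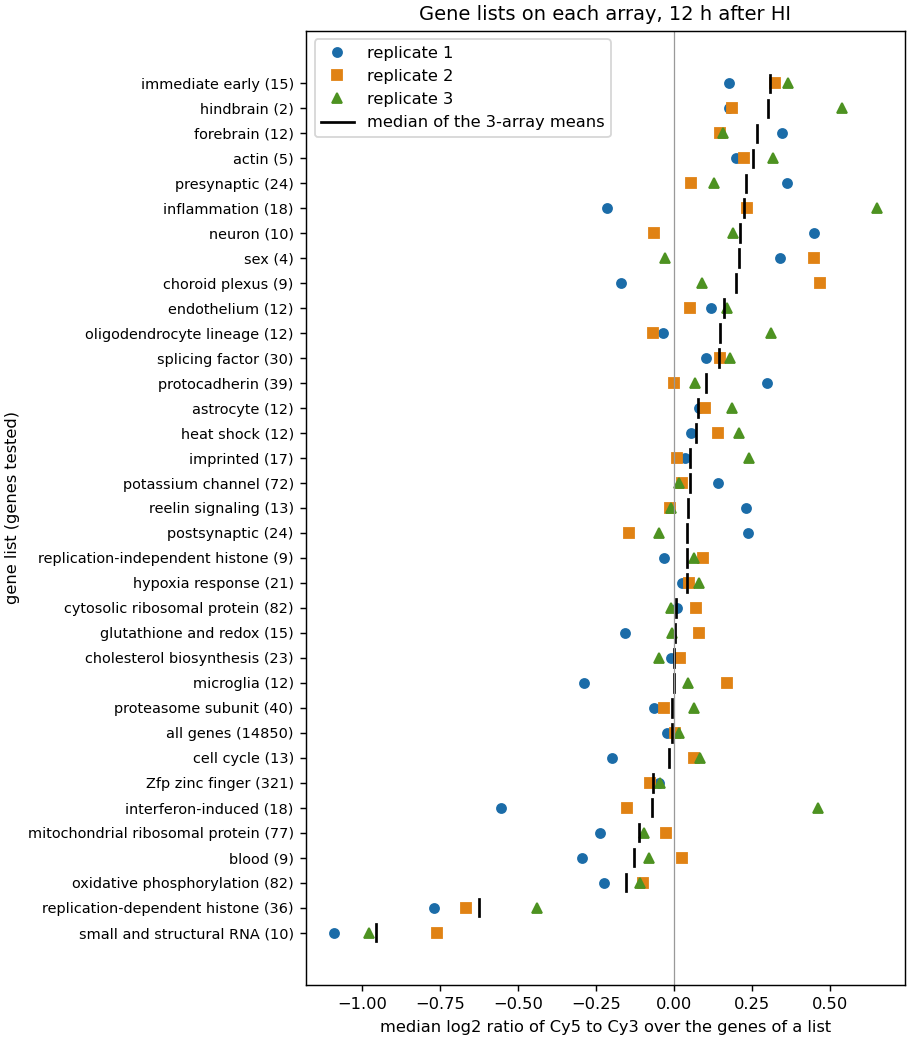
Median log2 ratio of Cy5 to Cy3 (horizontal axis) of each gene list on each of the 3 arrays (symbols) and over the means of the 3 arrays (black bar), with the number of genes tested in brackets. The small and structural RNAs and the replication-dependent histones lie farthest left, at -0.96 and -0.62, and the symbols of the inflammation and interferon-induced lists are spread to both sides of 0.

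Genes that the study discusses for MgSO4 given before HI showed no difference past the test, which no other gene passed either. The study proposes them as upstream regulators inferred from the genes downstream of them, and reports no change in expression of Rictor or Il4 themselves. Whether the downstream genes shifted here was not tested. Rictor, the defining subunit of mTORC2, had log2 ratios of 0.60, 0.10 and 0.21. Sirt1, a deacetylase gene, had -0.06, -0.13 and -0.13. The lipid receptor gene Ppara, the transcription factor gene Creb1 and the transferrin receptor gene Tfrc had mean log2 ratios of 0.06, 0.00 and 0.04. Ifng and Il4, cytokine genes of lymphocytes, did not pass the detection filter.

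Ratios of the RV Mg 3h arrays, which carried pools of other animals with the same labelling at 3 h, were compared next. The difference between 12 h and 3 h called 0 genes (0%) with limma, the smallest adjusted p being 0.999, and 169 of 14533 (1.16%) reached the unadjusted threshold. A difference missing the threshold does not show that both times were equal. By their own test the 3 h arrays had 796 called genes (5.4%), 579 (3.93%) higher in Cy5 and 217 (1.47%) higher in Cy3. Of the 648 genes higher in Cy5 at 12 h, 617 were tested at 3 h, 604 had the same sign and 373 (60.5%) were called in that direction. Of the 323 higher in Cy3, 310 were tested, 295 had the same sign and 94 (30.3%) were called. Among all genes with a 12 h mean above 0, 72.8% were also above 0 at the earlier time and 7.87% were called there. Among those below 0, the shares were 83.8% and 2.52%.

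**Figure D5:**
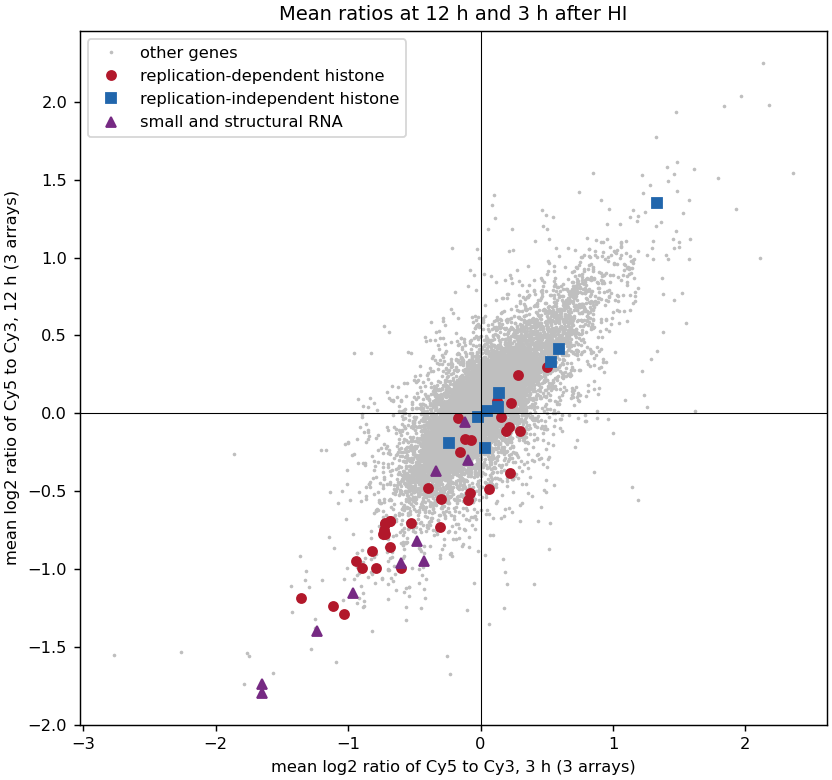
Mean log2 ratio of Cy5 to Cy3 of each gene at 3 h (horizontal axis, 3 arrays) and at 12 h (vertical axis, 3 arrays), with histone genes and small or structural RNAs in colour. Most coloured points of the replication-dependent histones and small RNAs lie below 0 at both times, and H1f0 lies at 1.34 at 3 h and 1.35 at 12 h.

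Single genes followed the count. Kcnk2 had log2 ratios of 0.83, 1.03 and 1.05 at 3 h (mean 0.97, adjusted p = 0.0093, limma), and Ier2 had 1.38, 1.91 and 1.17 (mean 1.49, adjusted p = 0.00936, limma). H1f0 had 1.42, 1.32 and 1.27 at 3 h, between its lowest and middle values at 12 h. Klb had -1.49, -1.20 and -1.06, and Utp14a had -1.27, -1.06 and -0.93. Peg10 had -2.75, -2.87 and -2.68 at 3 h, all on the side of replicates 1 and 2 at 12 h and opposite to replicate 3. Neurog2 was at -0.16, 1.59 and -2.09 at 3 h, and Amigo2 at 0.15, 0.06 and 0.53, below all its 12 h values.

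The histone and small RNA lists were less far from 0 at 3 h. Replication-dependent histones had a median of -0.35 at 3 h, -0.13, -0.30 and -0.63 by array, with 13 of 36 called higher in Cy3 where 1.47% of genes were. Small and structural RNAs had a median of -0.54 at 3 h, -0.21, -0.64 and -1.11 by array, with 3 of 10 called. H2ac22 had -0.99, -0.92 and -0.92, and Rnu1b6 had -0.95, -1.98 and -2.02. The 12 h and 3 h arrays of both lists overlapped.

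The same lists were also read on arrays without this pair of RNAs. On the 4 Mg 12h arrays, MgSO4 against control without injury and with the same dye layout, the replication-dependent histones had a median of -0.13 and the small RNAs -0.08. Single arrays varied in both directions, with -0.07, 0.17, -0.37 and -0.29 for the histones and 0.01, 0.49, -0.39 and -0.51 for the small RNAs. On the RV PBS 12h arrays the medians were -0.08 and -0.38. By array they were -0.35, -0.09 and 0.20 for the histones and -0.85, -0.52 and 0.41 for the small RNAs. H1f0 had a mean log2 ratio of -0.60 on the Mg 12h and -0.31 on the RV PBS 12h arrays, and Kcnk2 0.24 and 0.55. For Sv2a the ratio here minus that on the same 2 groups was 0.22 and 0.12, and for Psme3 0.21 and -0.04. Of the 12 genes with the smallest p in each direction, 10 higher in Cy5 and 8 higher in Cy3 had the same sign on Mg 12h. Among genes at the unadjusted threshold 67.7% and 68.4% did, beside 65.6% of all genes above 0 and 57.8% of those below. A dye preference of a probe would be shared by all these arrays and its part in single ratios was not tested. The difference between RV Mg 12h and Mg 12h called 0 genes (0%) with limma, with 889 of 13758 (6.46%) at the unadjusted threshold and 39 called without RV Mg 12h replicate 3. Those 2 groups lay on different slides, so slide and group cannot be told apart.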

How the data were processed

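For each array, the authors deposited Agilent Feature Extraction 10.5.1.1 output with processed Cy3 and Cy5 intensity per spot, background-subtracted and dye-normalized, and a series table of log10 ratios of the same arrays (the sign being Cy5 over Cy3). Log2(Cy5/Cy3) was averaged over the spots of a probe after removal of spots marked as outliers. A probe was tested when Cy3 or Cy5 was well above background on 2 or more of the 3 arrays, and a gene was read by its brightest probe. Probes without a single symbol and Rik sequences were left out. Ratios were tested against 0 in limma 3.58.1 (R 4.3.3) with Benjamini-Hochberg adjustment over all probes tested, and differences between groups by limma contrasts. A call needed an adjusted p under 0.05 and 1.5-fold. The arrays' number limits the precision. The code was tested on simulated data.

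Named genes were the 12 of each sign with the smallest p, the 5 largest of each sign, the 3 smallest p of each list and genes the study discusses. The members and lists were chosen with earlier results of these data known, and the histone, small RNA and actin lists after their values were seen. A detection bound sets the bright channel's mean against the higher of the dim probe's own signal and the lowest signal well above background. Alternatives changed the test, background correction, filter, centring, spread, batch, probe and replicates.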

Additional observations from a re-analysis of the deposited data

How the results depend on the processing

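Array number and dim signal limit these results. The count of 0 genes at the adjusted threshold (limma, 971 unadjusted) became 286 without background subtraction, 240 with normexp, 659 with the spread shared with RV Mg 3h, 523 with the spread shared over 31 arrays, and 0 to 330 when a replicate was left out. At the unadjusted threshold, genes higher in Cy5 (648) and in Cy3 (323) numbered 277 and 93 by the methods' t-test, 290 and 133 without background subtraction, 244 and 100 with normexp, 2049 and 1544 with no fold threshold and 111 and 74 at 2-fold. The probe with the largest mean gave 1112 higher in Cy5, and leaving out a replicate gave 288 to 496 higher in Cy3. Slide as a random block could not be fitted to the 3 arrays alone or to the difference from Mg 12h.

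List medians moved beyond their spread over arrays in 34 of 408 recomputations. Without background subtraction they were 0.17 for immediate early, 0.086 for hypoxia response, 0.044 for hindbrain, 0.11 for cytosolic ribosomal and -0.031 for Zfp genes, and with normexp 0.11, 0.072, 0.0022, 0.10 and -0.010, with 0.081 for endothelium and 0.091 for splicing factors. The probe with the largest mean gave 0.14 for hypoxia response, 0.20 for heat shock, 0.26 for astrocyte and 0.20 for splicing factors. The hindbrain median was -0.16 with both channels detected on every array and -0.21 with no filter. Leaving out a replicate gave 0.20 to 0.36 for immediate early, 0.024 to 0.078 for hypoxia response, 0.059 to 0.19 for heat shock, -0.039 to 0.0033 for cholesterol, 0.051 to 0.15 for astrocyte, 0.056 to 0.24 for endothelium, -0.22 to 0.061 for blood, 0.13 to 0.30 for forebrain, 0.10 to 0.14 for splicing factor and -0.075 to -0.043 for Zfp genes.

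Of the named genes, Creb1 turned to 0.0093 with normexp, and Ppara to -0.19 and Tfrc to -0.45 by the probe with the largest mean. Leaving out a replicate turned Ccl4 (-0.26 to 0.38), Creb1 (-0.013 to 0.011), Cxcl10 (-0.17 to 1.31), Gbp2 (-0.34 to 0.39), Ifit1 (-0.92 to 1.92), Lilrb4a (-0.24 to 0.19) and Tfrc (-0.0081 to 0.12). The cause of these changes was not tested.

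Between RV Mg 12h and RV PBS 12h, the 2 called genes became 0 without background subtraction, 0 with no filter, 405 with slide as a random block, 6 within slide 9, 36 with slide as a fixed block (added after the data were seen) and 0 to 4 without a replicate. Against Mg 12h, leaving out a replicate gave 0 to 39. With the replicate number as a block, limma called 1248 genes against RV PBS 12h, 0 against RV Mg 3h (178 unadjusted) and 0 against Mg 12h (804 unadjusted). Correlations of same-numbered deviations with RV PBS 12h were 0.46, 0.07 and 0.38, and the highest with another number were -0.06, 0.10 and -0.0003. Replicates 1 and 3 thus matched their own number best and replicate 2 did not. For replicate 1, alone on slide 8 in both groups, number and slide cannot be told apart. With RV Mg 3h the same-numbered correlations were -0.44, 0.05 and -0.03, beside 0.36, 0.37 and 0.12 with another number.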
